A study of Mus musculus with 4 samples.

Results

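The peaks described here lay outside every annotated gene of 2 deposited gene tables. They came from RNA immunoprecipitation followed by sequencing (RIP-seq), in which an antibody to the Flag tag recovered tagged Lin28b together with the RNA bound to it. A peak was taken when its summit, the position of strongest signal, fell inside the start-to-end span of no gene of either table, on either strand. The rule took 173 of 11912 peaks in the wild-type list, or 1.45% (95% exact binomial interval 1.25 to 1.68), and 244 of 15931 peaks in the mutant list, or 1.53% (1.35 to 1.73). In all, 417 of 27843 peaks were outside the 15704 genes of the tables. They are called outside peaks below, and the other 11739 and 15687 are called peaks inside genes.

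The cells are labelled as mouse pancreatic cancer-associated fibroblasts (CAFs). All of them overexpressed Flag-tagged Lin28b, either wild type or a mutant described as deficient in RNA binding, so no group lacked the tagged protein. There were 4 libraries in 4 groups of 1: an IP and an input for wild type and an IP and an input for mutant. With 1 library per group no difference has a replicate check, the depth of the libraries is unknown, and intervals cover counting error only. The inputs were read against cell type markers: both tables listed 6 of 8 markers of epithelium, with summed input levels of 2046 FPKM in wild type and 1381 in mutant. For fibroblasts, 6 of 14 markers were listed, with sums of 820.2 and 708, of which Vim gave 607 and 547, Fn1 118 and 74.6 and Sparc 93.8 and 83.8. Of the others, Col1a2, Col3a1, Pdgfrb, Fap, Pdpn, Dcn, Lum and Thy1 were not listed, and Col1a1 stood at 0.722 and 0.404 FPKM. Of the epithelial markers, Epcam and Cldn4 were not listed. The part of this in the peaks was not tested, and the cells are called by their label only.

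Lin28b is an RNA-binding protein with a cold-shock domain and a pair of zinc knuckles. It is known for holding back maturation of the let-7 microRNAs, whose precursors it grips at GGAG-like elements, and for binding many mRNAs. Signal outside annotated genes can come from several well-known kinds of RNA: transcripts that run on past the annotated end of a gene or start before its annotated beginning, short structural RNAs that a gene table leaves out, unannotated long RNAs, and copies of ribosomal RNA genes. Which of these a peak belongs to is read here only from its position, its strand and the RefSeq gene spans of the same build, GRCm38.

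Sequences are shown first for the few outside peaks whose position touches a RefSeq sequence directly. The wild-type peak at chr5:98475511-98475739 (GRCm38, minus strand, authors' fold 24.7) covered the whole hairpin of Mir703, chr5:98475556-98475664, on the hairpin's own strand. Its summit lay 10 bases before the mature microRNA, chr5:98475616-98475636, and also inside the RefSeq span of the protein-coding gene Cfap299. The strand of Cfap299 was not at hand. Whether the signal came from the hairpin or from a longer RNA over it was not tested. The mature sequence follows with its seed, bases 2 to 8, in capitals.
mmu-miR-703: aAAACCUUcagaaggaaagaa
The next sequences are the 250 bases just before the RefSeq start of 4 genes, written on the gene's strand, with the bases covered by the peak in capitals. They show where outside peaks ran across a gene start. Vbp1 (chrX:75514047-75514296, plus strand) had a peak in the wild-type list alone, Afg3l1 (chr8:123477612-123477861, plus) in both lists, and Ahnak (chr19:8989034-8989283, plus) and Cubn (chr2:13491877-13492126, minus) in the mutant list alone. For Afg3l1 the capitals mark the wild-type peak.
Vbp1: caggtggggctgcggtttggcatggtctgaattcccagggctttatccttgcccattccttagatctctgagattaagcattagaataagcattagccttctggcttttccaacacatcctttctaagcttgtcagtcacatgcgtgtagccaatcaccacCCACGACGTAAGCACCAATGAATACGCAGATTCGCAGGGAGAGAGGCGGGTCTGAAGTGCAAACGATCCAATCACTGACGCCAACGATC
Afg3l1: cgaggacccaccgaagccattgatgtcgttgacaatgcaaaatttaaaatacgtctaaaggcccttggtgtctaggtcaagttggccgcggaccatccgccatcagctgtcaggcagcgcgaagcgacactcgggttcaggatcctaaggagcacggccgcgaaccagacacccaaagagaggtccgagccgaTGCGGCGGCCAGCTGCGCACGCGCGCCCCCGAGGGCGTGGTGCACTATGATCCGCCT
Ahnak: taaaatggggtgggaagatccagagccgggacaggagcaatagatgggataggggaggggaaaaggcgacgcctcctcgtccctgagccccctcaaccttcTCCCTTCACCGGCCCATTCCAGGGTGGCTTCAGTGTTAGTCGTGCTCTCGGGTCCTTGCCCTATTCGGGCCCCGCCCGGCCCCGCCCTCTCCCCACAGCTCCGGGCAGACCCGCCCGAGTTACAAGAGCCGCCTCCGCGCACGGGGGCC
Cubn: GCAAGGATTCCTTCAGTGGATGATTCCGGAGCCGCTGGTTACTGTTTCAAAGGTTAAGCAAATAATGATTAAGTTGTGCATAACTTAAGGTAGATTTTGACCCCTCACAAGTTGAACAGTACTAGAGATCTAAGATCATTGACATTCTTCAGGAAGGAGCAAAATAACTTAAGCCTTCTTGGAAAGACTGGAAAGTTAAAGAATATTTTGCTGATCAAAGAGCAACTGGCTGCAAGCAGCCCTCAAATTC
The peaks covered the last 89 of these bases at Vbp1, the last 57 at Afg3l1, the last 149 at Ahnak and all 250 at Cubn. In all, 13 RefSeq promoter windows of 300 bases (250 before and 50 after the start) held an outside peak's summit, with the peak on either strand. GGAG was present on the gene's strand in 12 of these 13 windows, or 92.3%, and in 83.7% of all 32851 windows, so most windows of this length hold it. The reverse strand held it in 10 of 13 windows and in 82.1% of all windows. Neither AATAAA nor a run of 8 A occurred on the gene's strand in any of the 13, against 11.3% and 3.80% of all windows. These matches describe letters in a window and identify no binding site.

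Position followed the strand of the nearest gene. Of the outside peaks with a table gene on the same chromosome or scaffold, 80.4% of 168 in the wild-type list and 81.7% of 241 in the mutant list were on the strand of the nearest gene. Downstream of that gene's end on its strand stood 91 wild-type peaks (54.2%) and 148 mutant peaks (61.4%), while 26.4% of all bases between table genes are so placed. Upstream of a start on its strand stood 44 (26.2%) and 49 (20.3%), against 23.6% of bases. The opposite strand held few: 16 (9.52%) and 25 (10.4%) downstream of a gene's end, against 26.4% of bases, and 17 (10.1%) and 19 (7.88%) upstream of a start, against 23.6%. Strand can be read in this way because 98.8% of wild-type and 97.7% of mutant peaks inside genes had a gene on their own strand.

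Outside peaks also lay close to genes. The median distance from summit to the nearest table gene was 2633 bases in the wild-type list (exact 95% interval 1870 to 3844) and 1922 bases in the mutant list (1455 to 2445). Within 1 kb lay 48 wild-type peaks (28.6%) and 84 mutant peaks (34.9%), although such positions make up 1.08% of bases between genes. Between 1 and 5 kb lay 54 (32.1%) and 93 (38.6%), against 3.49% of bases. Over 100 kb from any table gene lay 18 (10.7%) and 14 (5.81%), against 64.1% of bases. Some sat at the very edge of a gene: 15 wild-type and 29 mutant outside peaks reached into a gene with their flank while the summit stayed out, and the closest summits were 2 and 3 bases away.

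**Figure D1:**
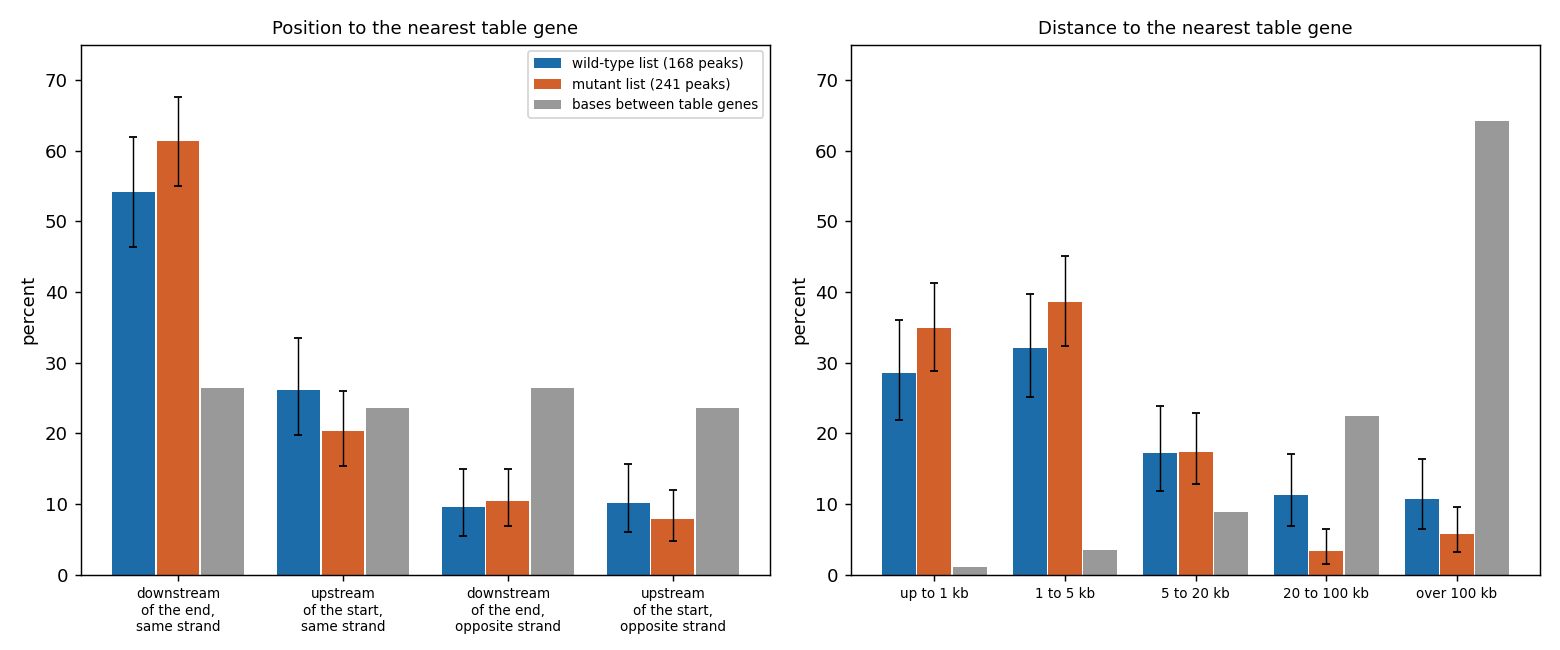
Share of outside peaks (percent, vertical axes) by position to the nearest table gene (left) and by distance to it (right), for 168 wild-type peaks in blue and 241 mutant peaks in orange, with exact 95% binomial intervals that cover counting error only; grey bars give the share of bases between table genes. The blue and orange bars stand above grey downstream of a gene's end on its strand (54.2% and 61.4% against 26.4%) and in the distance classes up to 20 kb, and below grey on the opposite strand and over 20 kb.

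Part of the outside peaks had a counterpart in the other list. A shared peak is one whose bases, at least 1 of them, also lay in a peak that the other list had on that strand. This held for 77 of 173 wild-type outside peaks, or 44.5% (37.0 to 52.2), where 49.6% of all wild-type peaks were shared. It held for 77 of 244 mutant outside peaks, or 31.6% (25.8 to 37.8), where 36.2% of all mutant peaks were shared. Both intervals include the share over all peaks of that list. The shares depend on the rule: they were 24.9% and 18.4% when the overlap had to cover 50% of both peaks. With only the mutant peaks of lowest p-value kept, as many as in the wild-type list, they were 30.6% in wild type and 54.5% in mutant. The share over all peaks was not computed under these other rules. These values therefore cannot be set against the 49.6% and 36.2% above. Among the 4 position classes, sharing was lowest upstream of a start on the opposite strand, with 3 of 17 wild-type and 3 of 19 mutant peaks. Between 20 and 100 kb from genes, 3 of 19 and 3 of 8 were shared. Over 100 kb from genes, 10 of 18 and 10 of 14 were shared.

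The outside peaks held many of the highest folds of both lists. The fold is the authors' own enrichment value at the summit and is read only within a list. Among the 10 peaks of highest fold, 5 in the wild-type list and 4 in the mutant list were outside table genes, and among the top 100, 13 and 9 were. The median fold of wild-type outside peaks was 4.74 (4.17 to 5.42) and that of wild-type peaks inside genes 3.77. In the mutant list the medians were 4.03 (3.70 to 4.42) outside and 4.22 inside. The authors' −log10 q-values were lower outside genes in both lists. Their medians were 10.6 outside and 21.5 inside in wild type, and 8.28 outside and 25.8 inside in mutant. The highest fold reached 2217 and 2169 outside, where peaks inside genes ended at 270.2 and 341. Folds were higher far from genes: outside peaks over 100 kb from a gene had median folds of 12.4 (7.49 to 36.2, 18 peaks) and 9.63 (5.42 to 47.7, 14 peaks).

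**Figure D2:**
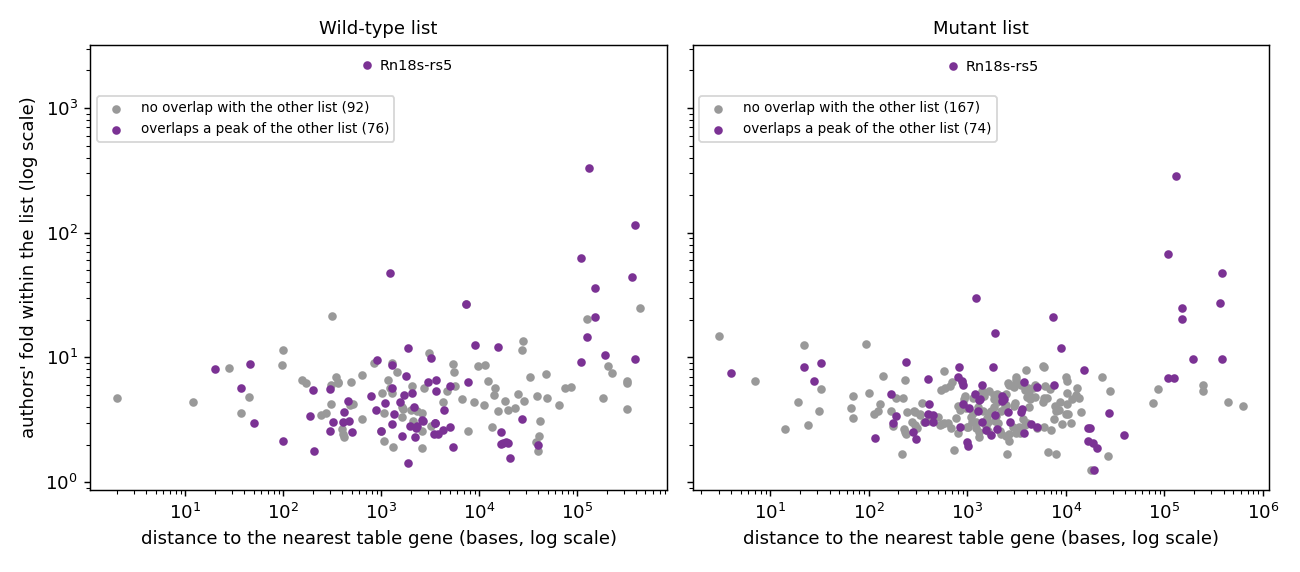
The authors' fold (vertical axis, log scale) of each outside peak against its distance to the nearest table gene in bases (horizontal axis, log scale), in the wild-type list (left, 168 peaks) and the mutant list (right, 241 peaks), with peaks that overlap a peak of the other list in purple and the others in grey. Most points lie below a fold of 10 within 20 kb of a gene, and the points of highest fold are purple: the Rn18s-rs5 peaks at 2217 and 2169, and a group over 100 kb away.

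The highest fold in both lists belonged to a ribosomal RNA sequence. The peak at chr17:39843313-39848713 on the plus strand had a fold of 2217 in the wild-type list and was 5401 bases wide, the widest outside peak of that list. Its mutant counterpart, chr17:39845463-39848162, had a fold of 2169. Both summits lay in Rn18s-rs5, which RefSeq lists as a pseudogene related to 18S ribosomal RNA, the RNA core of the small ribosomal subunit. The minus strand of the same place held a peak in each list too, chr17:39846375-39848154 with a fold of 47.7 in wild type and chr17:39846560-39848147 with 29.9 in mutant. The nearest table gene was CT010467.2, a pseudogene on the minus strand, with IP and input levels of 5.08 and 0 FPKM in wild type and 0.817 and 0.459 in mutant. Ribosomal RNA genes exist in many near-identical copies, and the sources used here do not give how reads with several matching places were counted, so the place of these values is uncertain and was not tested.

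Far from table genes the outside peaks fell into 15 places over 100 kb away, 7 of them in both lists, 5 in the wild-type list alone and 3 in the mutant list alone. The strongest was chr6:3200748-3201591 on the plus strand, with folds of 329.7 in wild type and 285 in mutant. It lay 131729 bases from the table gene Gm20559 and 2954 bases from the RefSeq gene LOC115490388. At chr8:15519737-15520084 the folds were 116 and 47.7, with a minus-strand peak at chr8:15519892-15520129 of 9.79 and 9.63. At chr3:5860295-5860771 they were 62.1 and 67.5, with minus-strand peaks of 9.21 and 6.81. A RefSeq long noncoding RNA, Gm36876, held peaks on both strands at chr11:109011646-109012091, with folds of 36.2 and 24.9 on the minus strand and 21.1 and 20.4 on the plus strand. Another, Gm30821, held a plus-strand peak at chr18:68691957-68692296 with 44.3 and 27.4. How reads with several matching places were counted is unknown for these far places as well, and their placement was not tested.

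Peaks on both strands of 1 place were more frequent among outside peaks than among peaks inside genes. An opposite-strand peak of the same list overlapped 13 of 173 wild-type outside peaks, or 7.51% (4.06 to 12.5), where 1.61% of all wild-type peaks and 1.52% of those inside genes had such a partner. It overlapped 17 of 244 mutant outside peaks, or 6.97% (4.1 to 10.9), where 3.48% of all mutant peaks and 3.42% of those inside genes had one. In most cases the partner was an outside peak too, so 1 place counted as 2 peaks. The intervals treat such peaks as independent and are therefore too narrow. Of the 15 far places, 4 were of this kind: those on chromosomes 3, 8 and 11 and one near the start of chromosome 12. On chromosome 12 the minus-strand peak chr12:3109891-3110130 was shared, with folds of 14.5 and 6.81, while the plus-strand peak chr12:3109802-3110041, with 20.2, was in the wild-type list alone. The median fold of both-strand outside peaks was 20.2 in wild type (7.66 to 62.1) and 9.63 in mutant (5.33 to 24.9). Mutant outside peaks at Ranbp2, Ahnak, Syne1 and Pura had opposite-strand partners as well.

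Genes for small and ribosomal RNAs appeared under outside peaks, mostly those of the wild-type list. RefSeq genes for small nuclear, small nucleolar, ribosomal or micro RNAs, on either strand, overlapped 9 of 173 wild-type outside peaks, or 5.20% (2.41 to 9.65), and 2 of 244 mutant outside peaks, or 0.820% (0.0994 to 2.93). Among peaks inside genes the shares were 0.273% and 0.121%. A summit lay within such a gene for 8 of the wild-type peaks and for none of the mutant peaks, and no mutant peak of their strand overlapped any of the 9. The libraries were made with a stranded mRNA kit, and RefSeq strand was at hand here only for the microRNAs, Mir703 and Mir8091.

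Small nuclear RNAs (snRNAs), most of which serve in splicing, lay under 4 of these peaks besides Rnu3a. On chromosome 4, 3 peaks of the plus strand near Kif2c each overlapped a separate snRNA gene: chr4:117189826-117190041 at Gm25099 with a fold of 26.9, the highest of the wild-type outside peaks without a mutant overlap; chr4:117202433-117202632 at Gm23143 with 3.79; and chr4:117210729-117210940 at Gm23287 with 13.5. The summit of the first was 4 bases short of its gene. A similar peak stood at Gm24950, chr11:101641706-101641905, with 5.87. Kif2c, a kinesin that depolymerises microtubule ends, lies on the other strand and had IP and input levels of 15.0 and 20.1 FPKM in wild type and 20.9 and 26.8 in mutant. Its level was thus below input in both IPs. So was that of the median gene, with log2 ratios of -0.29 in wild type and -0.61 in mutant over all genes.

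Snord13, a small nucleolar RNA that guides modification of ribosomal RNA, lay under chr8:31149882-31150086 with a fold of 6.29. Rnu3a, a gene for U3, which takes part in processing of ribosomal RNA precursors, lay under chr10:40258352-40258561 with 2.31. Mitochondrial ribosomal RNAs gave the last pair: mt-Rnr1 under MT:478-918 with 3.80 and mt-Rnr2 under MT:1575-2342 with 2.58. They were 2 of 13 wild-type peaks on the mitochondrial genome, and the mutant list had no peak there. The next gene on that strand, mt-Nd1, a subunit of respiratory complex I, stood at 2053 FPKM in the wild-type IP over 1298 in its input, and at 274 in the mutant IP over 1123. Mir703, whose sequence is given above, was the only microRNA with a summit in its hairpin. In the mutant list, a peak of fold 2.99 past Lcor overlapped the hairpin of Mir8091 with its summit outside it.

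Past the ends of genes the outside peaks were few but continued for kilobases. In the last 500 bases inside table genes, on the gene's strand, lay 917 wild-type and 601 mutant summits. In the first 500 bases past the end lay 21 and 28 summits of outside peaks. Summits past an end that fell in another table gene, or nearer to one, are left out by the rule. Part of the drop is thus built in, and its size was not tested. Over 5 kb, 4976 and 4141 summits lay before the end and 69 and 122 past it. Those 69 were 41.1% (33.6 to 48.9) of wild-type outside peaks, and those 122 were 50.6% (44.1 to 57.1) of mutant outside peaks, in 1.18% of the bases between genes. The gene ahead of them was protein-coding for 46 of the 69 and 111 of the 122, and a lincRNA for 11 and 6.

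**Figure D3:**
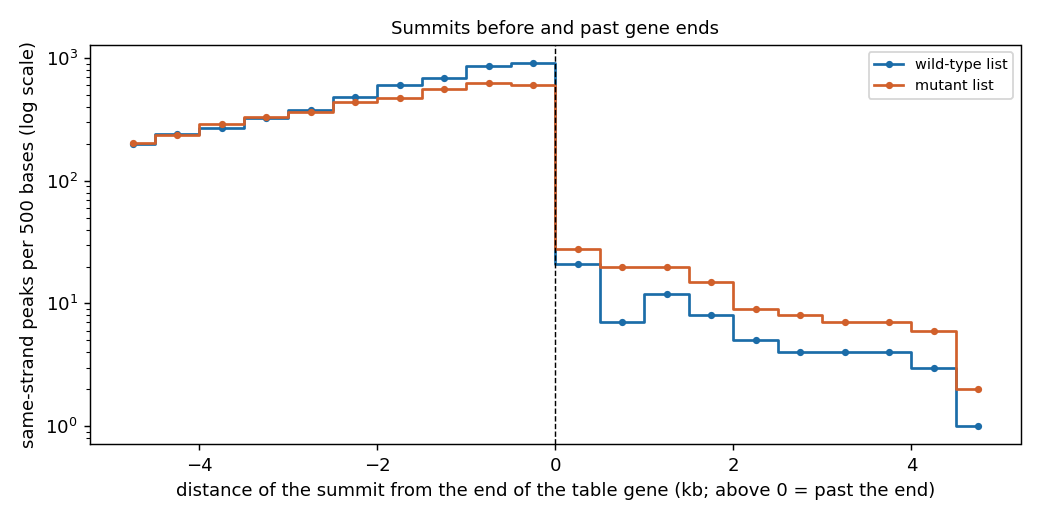
Number of same-strand peak summits per 500 bases (vertical axis, log scale) against distance from the end of the table gene in kb (horizontal axis, above 0 is past the end), for the wild-type list in blue and the mutant list in orange. Past the end only outside peaks are counted, so summits in another table gene are left out there. The counts drop from 917 and 601 in the last 500 bases inside genes to 21 and 28 in the first 500 bases past the end, and decline further towards 5 kb.

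RefSeq places the end of many of these genes farther out. The summit was inside the RefSeq span of the same gene for 43 of the 69 wild-type peaks (62.3%) and for 81 of the 122 mutant peaks (66.4%). The median fold of these downstream peaks was 4.17 (3.44 to 5.20) in wild type and 3.67 (3.24 to 4.08) in mutant, and their median widths were 362 and 384 bases. A peak of the other list overlapped 36 of the 69 (52.2%) and 37 of the 122 (30.3%). They followed 54 genes in the wild-type list and 71 in the mutant list, of which 24 were in both (44.4% and 33.8% of each). A peak of the same list also lay inside the gene for 32 of the 54 (59.3%) and 46 of the 71 (64.8%), where 23.1% and 17.5% of all genes of the 2 tables held one.

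Several genes were followed by a row of peaks. Outside peaks on 1 strand with summits up to 10 kb apart were joined into runs, which gave 25 runs of at least 2 peaks in wild type, holding 65 of the 173, and 46 in mutant, holding 142 of the 244. The longest run had 7 mutant peaks and followed Rad18, a ubiquitin ligase of post-replication DNA repair. It spanned chr6:112611401-112619496 on the minus strand, with folds of 2.42 to 5.85, and no wild-type peak overlapped it. Rad18 itself had IP and input levels of 23.7 and 11.2 FPKM in wild type and 28.8 and 19.6 in mutant. A run of 6 mutant peaks, with folds of 2.69 to 6.02, followed Parpbp, which restrains homologous recombination, at chr10:88079702-88086650 on the minus strand. A wild-type peak of fold 6.30 overlapped 1 of the 6. The summits of all 6, and that of the wild-type peak, lay in a separate RefSeq long noncoding RNA, Gm30233. The strand of Gm30233 was not at hand.

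Another run of 6 mutant peaks lay on either side of Klhl34, on its opposite strand, after the end of Cnksr2, a scaffold protein of Ras signalling, at chrX:157815434-157821730, with folds of 3.24 to 6.05. Cnksr2 was listed in the mutant table alone, at 3.78 FPKM in IP and 1.72 in input. Lcor, a corepressor of nuclear receptors, was followed by 5 mutant peaks at chr19:41587663-41596026 on the plus strand, with folds of 2.33 to 3.74. The widest of them covered 4233 bases. No wild-type peak overlapped this run, although Lcor stood at 119.7 FPKM in the wild-type IP over 82.0 in input, and at 109 over 47.4 in mutant. Sema3e, a secreted semaphorin of axon and vessel guidance, was followed by 4 mutant peaks up to 6040 bases past its end, with folds of 3.33 to 8.60. Its levels were 32.4 over 19.4 in wild type and 44.3 over 17.2 in mutant. Rif1, which sets replication timing and takes part in DNA break repair, was followed by 4 mutant peaks with folds of 4.96 to 7.77. Its levels were 35.3 over 19.5 in wild type and 70.7 over 26.4 in mutant. Rad18, Lcor, Sema3e and Rif1 thus had IP levels above input in both tables, while the wild-type list had no outside peak past their ends. Inside these genes, on their strand, the wild-type list did have peaks, 6, 8, 8 and 15 in that order. The mutant list had 1, 9, 12 and 23 there.

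Other runs were in both lists with different outlines. Past Uprt, which is related to uracil phosphoribosyltransferases, the wild-type list had 1 peak of 3749 bases at chrX:104507562-104511310 with a fold of 9.89 and a shorter one of 3.80. The mutant list had 5 peaks over the same stretch, of 1.95 to 2.90. Uprt levels were 32.0 FPKM in the wild-type IP over 14.9 in input and 17.9 over 8.46 in mutant. Past Hipk2, a stress-responsive kinase, the order was the reverse: 1 mutant peak of 4806 bases at chr6:38688707-38693512, the widest outside peak of that list, with a fold of 2.68, lay over 4 wild-type peaks of 1.42 to 2.64. Hipk2 levels were 42.0 in both the IP and the input of wild type and 50.4 over 30.7 in mutant. Past Pura, a protein that binds purine-rich single-stranded nucleic acids, 5 wild-type peaks with folds of 2.53 to 5.17 ran on towards the start of Igip, and all 5 were shared. Pura levels were 22.6 over 11.2 in wild type and 29.2 over 13.5 in mutant.

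**Figure D4:**
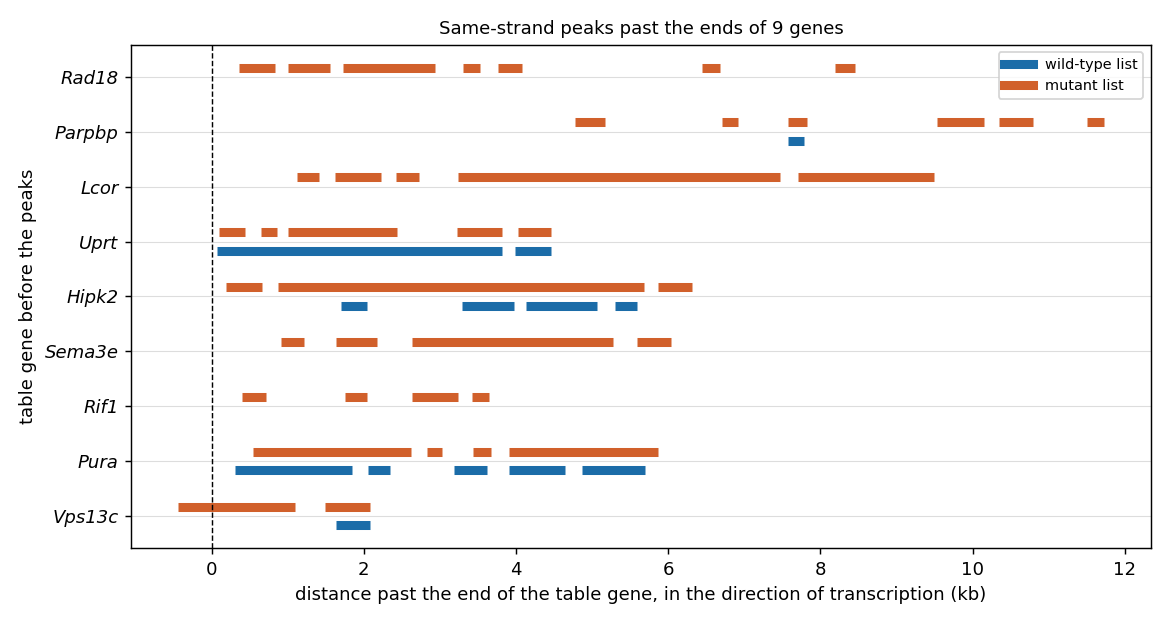
Extent of same-strand outside peaks past the end of 9 table genes, in kb from the gene's end in the direction of transcription (horizontal axis), with 1 row per gene, mutant peaks in orange and wild-type peaks in blue. Rad18, Lcor, Sema3e and Rif1 carry mutant peaks alone, Uprt and Hipk2 carry 1 wide peak in one list over several short ones in the other, and Pura carries peaks of both lists out to nearly 6 kb.

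RefSeq spans divided these runs. All outside peaks past Lcor, Uprt, Hipk2 and Rif1 lay in a longer RefSeq span of the same gene, and those past Rad18, Sema3e and Pura lay in no RefSeq span of that gene. The mutant run past Parpbp lay in another RefSeq gene, Gm30233. Vps13c, which moves lipids between membranes, had a shared pair of high fold: chr9:67997272-67997719 with a fold of 11.8 in wild type and chr9:67997134-67997719 with 15.8 in mutant, 1894 and 1893 bases past the table's end and inside the RefSeq span. A second mutant peak, with 7.48, had its summit 4 bases past the table's end. Its levels were 17.2 over 11.2 FPKM in wild type and 35.0 over 10.6 in mutant. Past Tra2a, a splicing regulator, a peak of 225 bases at chr6:49236466-49236690 stood alone, 7325 bases from the end and in no RefSeq gene, with 27.0 and 21.2. Tra2a levels were 55.0 over 35.6 in wild type and 21.6 over 39.4 in mutant.

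Genes with an outside peak past their end were then read in the gene tables. They were picked by a peak of the same IP library, so the calls are a description and not independent of that choice. A gene was called enriched when its IP level was at least 2-fold its input level with an authors' q-value under 0.05, and lower for the converse, and these calls compare 2 libraries only. Enriched genes were 13 of 53 genes before wild-type peaks in the wild-type table, or 24.5% (13.8 to 38.3), where 7.40% of all genes of that table were enriched. They were 23 of 71 genes before mutant peaks in the mutant table, or 32.4% (21.8 to 44.5), where 5.98% of all genes were. Lower genes were 0 of 53, with an exact upper bound of 6.72%, and 0 of 71, with 5.06%, where 21.5% and 36.0% of all genes were lower. Genes with a peak inside are the closer comparison: of 3410 such genes in wild type 19.1% were enriched and 0.499% lower, and of 2522 in mutant 21.6% and 0.991%. Among genes before an outside peak, those with a peak inside too were enriched in 10 of 32 and 19 of 46 cases, and those without one in 3 of 21 and 4 of 25. The median log2 ratio was 0.55 (0.24 to 0.79) in wild type against -0.29 for all genes, and 0.76 (0.60 to 0.89) in mutant against -0.61. These genes also had higher inputs, with medians of 10.7 against 7.11 FPKM in wild type and 11.8 against 7.62 in mutant, and the part of level in the calls was not tested.

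Each set of genes also stood above the median of all genes in the other table. That table is no independent check, because 24 genes were in both sets and others held peaks of the other list inside. Genes before wild-type peaks had a median log2 ratio of 0.32 (-0.01 to 0.72) in the mutant table, against -0.61 for all its genes. Enriched were 11 of 54 and lower 4 of 54, where 5.98% and 36.0% of all genes were. Genes before mutant peaks had a median of 0.39 (0.12 to 0.57) in the wild-type table, against -0.29. Enriched were 13 of 70 and lower 1 of 70, where 7.40% and 21.5% of all genes were. Vps13a, a lipid transfer protein like Vps13c, was among the genes enriched in both tables with outside peaks of both lists past their ends. It stood at 53.2 over 17.4 FPKM in wild type and 86.8 over 17.6 in mutant. Bnip3, a receptor for removal of mitochondria, stood at 148 over 46.2 FPKM in wild type and 16.0 over 31.2 in mutant, with 2 wild-type outside peaks of up to 3.88 that no mutant peak overlapped. Atm, the kinase that signals DNA breaks, had 2 wild-type outside peaks of up to 5.49. Both overlapped a mutant peak of 6.26 at chr9:53437350-53440290, whose summit fell inside the gene. Atm stood at 14.7 over 6.15 FPKM in wild type and 58.1 over 9.95 in mutant. These 3 genes were chosen after their values were seen.

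**Figure D5:**
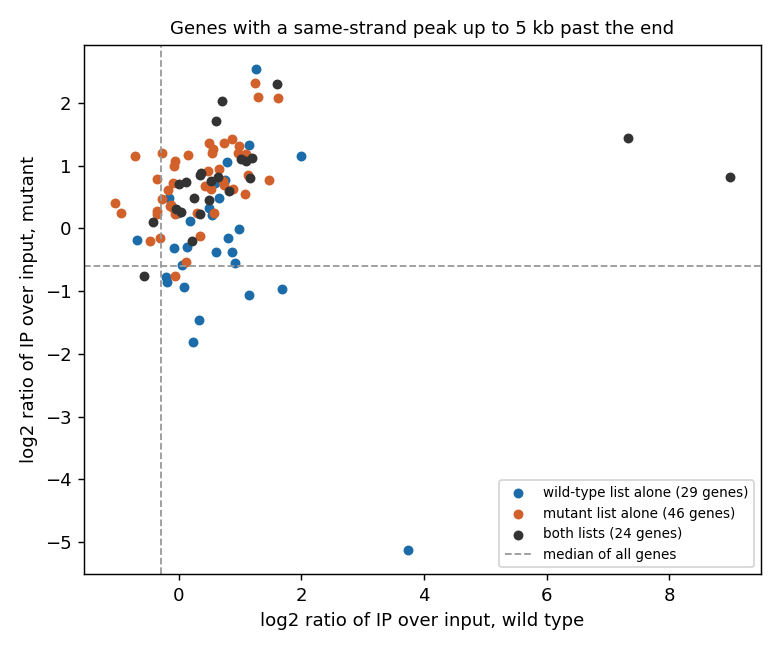
Log2 ratio of IP over input in the mutant table (vertical axis) against that in the wild-type table (horizontal axis) for genes with a same-strand outside peak up to 5 kb past the end, with such outside peaks in the wild-type list alone (29 genes, blue), the mutant list alone (46, orange) or both (24, black); dashed lines give the medians of all genes, -0.29 and -0.61. Most points lie above and to the right of both lines; the black points far right and the blue point at the bottom are genes listed at 0 in 1 library.

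Upstream of gene starts the outside peaks were fewer than past gene ends. The median distance was 10551 bases (2029 to 18738) for 44 wild-type peaks and 1235 (413 to 8007) for 49 mutant peaks on the gene's strand, with overlapping intervals. Within 1 kb of the start lay 13 and 24, of which RefSeq placed 7 and 16 inside its own span of that gene. Among the mutant peaks within 1 kb, those of highest fold were in that list alone. Ranbp2, a giant protein of the nuclear pore, had one at chr10:58446845-58447049 with a fold of 14.9 and its summit 3 bases from the start. Cubn, an endocytic receptor, had one of 12.8, and Ahnak, a giant scaffold protein, one of 12.7. Ranbp2 levels were 93.7 FPKM in the wild-type IP over 38.3 in input and 159.8 over 37.2 in mutant. Ahnak levels were 701 over 409 in wild type and 1420 over 292 in mutant, and those of Cubn 3.01 over 2.32 and 20.1 over 11.0. All 3 had IP above input in both tables.

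Afg3l1, a mitochondrial protease subunit, had an outside peak before its start in both lists, with folds of 8.81 and 8.44, and levels of 22.1 over 28.6 FPKM in wild type and 31.7 over 22.8 in mutant. Nipbl, which loads cohesin onto DNA, had shared peaks of 5.65 and 8.98 with summits 37 and 33 bases before the start. Actr2, a subunit of the Arp2/3 complex that branches actin, had a wild-type outside peak of 8.04, 20 bases before the start, that overlapped a mutant peak of 6.95. Vbp1, a subunit of the prefoldin chaperone, had a peak of 8.29 in the wild-type list alone. Its level was 155 FPKM in the wild-type IP over 14.5 in input and 25.3 over 18.3 in mutant. Nipbl, Actr2 and Vbp1 were chosen after their values were seen.

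Farther upstream, runs stood well away from the next start. Before Hnrnpa3, an RNA-binding protein of the nucleus, 4 wild-type and 5 mutant peaks filled chr2:75638455-75642698 at 16775 to 20649 bases from the start, with folds of 1.55 to 2.08 and 1.25 to 2.73. All 4 of the wild-type peaks and 4 of the mutant peaks were shared. Before Odf2l, 5 mutant peaks at chr3:145104257-145108381 had folds of 2.98 to 6.48, and no wild-type peak overlapped them. A run of 5 wild-type peaks at chr13:98530265-98534159 on the minus strand lay in the RefSeq long noncoding RNA Gm41032, with folds of 1.77 to 3.11, and 1 of the 5 was shared. The wild-type list also had 4 peaks past the lincRNA Gm13387 at chr2:25117052-25122129 on the minus strand, with folds of 2.57 to 3.23, and none of them was shared.

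On the opposite strand of the nearest gene, few places were strong in both lists apart from Rn18s-rs5 and the far places above. A peak at chr15:86194896-86195325, upstream of Cerk, the ceramide kinase, had folds of 12.5 and 11.8. In the wild-type list alone stood chr9:3000144-3000727 near Gm10722, with 21.5, and chr14:19415702-19415917 near Gm21738, with 11.4. Gm10722 and Gm21738 were listed at 0 in both inputs, with IP levels of 0.327 and 3.47 FPKM in wild type and 0.252 and 0.789 in mutant. In the mutant list alone the strongest were chr4:32794196-32794430 upstream of Lyrm2 with 8.31, chr7:4456643-4456866 near Eps8l1 and inside the RefSeq span of Rdh13 with 7.85, and chr10:5020666-5020865 near the end of Syne1 with 7.03. At the last, the minus strand, that of Syne1, held a mutant peak of 6.66.

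RefSeq spans, taken on either strand, covered more than the table spans did. The nearest gene's own RefSeq span held the summit for 52 wild-type outside peaks (30.1%) and 105 mutant ones (43.0%). Another RefSeq gene held it for 44 (25.4%) and 36 (14.8%). Among those other genes, 17 and 13 peaks were in long noncoding RNAs and 14 and 19 in protein-coding genes. No RefSeq gene held the summit for 72 (41.6%) and 100 (41.0%), and the nearest RefSeq gene was then a median 2942 and 3042 bases away. Of these, 48 and 67 were within 5 kb of a RefSeq gene and 7 and 6 over 20 kb. Neither Lin28b itself nor Hmga2, a known target of the let-7 pathway, had an outside peak within 100 kb.

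Outside peaks were somewhat wider than peaks inside genes in both lists. The median width was 304 bases (262 to 342) in wild type against 255 inside genes, and 314 (288 to 352) in mutant against 254. No peak of either list was narrower than 200 bases. Shared outside peaks were wider, with medians of 398 and 410 bases, than those of 1 list alone, with 249.5 and 292. Peaks inside genes went the same way, with 280 and 312 bases when shared and 238 and 237 when not. A wider peak has more bases that can meet the overlap rule, and the part of this was not tested.

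Chromosomes differed in how many outside peaks they carried. Chromosome 2 had most in both lists, 21 of 953 wild-type and 26 of 1227 mutant peaks. Relative to all peaks of a chromosome, the mutant list had 3.67 outside peaks per 100 on X (2.34 to 5.46), 3.45 on chromosome 19 (2.06 to 5.41) and 3.36 on chromosome 6 (2.16 to 4.95). The wild-type list had 1.62 (0.814 to 2.89), 1.16 (0.427 to 2.51) and 2.53 (1.35 to 4.29) there, with overlapping intervals. Runs count peak by peak here. In mutant, 6 of 23 on X followed Cnksr2, 5 of 18 on chromosome 19 Lcor and 7 of 24 on chromosome 6 Rad18. Chromosome 1 had 3 of 839 in wild type and 1 of 1241 in mutant, and chromosome 16 had 0 of 435, with an exact upper bound of 0.844 per 100, and 2 of 566. Unplaced scaffolds carry no table gene. GL456233.1 gave 3 peaks in each list, among them a wild-type peak of 1753 bases with a fold of 7.67 that lay over all 3 mutant peaks of 2.77 to 7.78. JH584304.1 gave 2 wild-type peaks, with folds of 15.0 and 10.6, and no mutant peak.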

How the data were processed

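RNA bound to Flag-tagged Lin28b and matched input RNA were sequenced, with 1 library in each of 4 groups, so no test between groups was made. The tools, per the submitters' processing notes, were bedtools, HOMER 4.11.1, MACS2 2.2.7.1 and HISAT2 2.1.0 and the builds GRCm38 and mm10, without their roles. The authors' deposited peak lists, 1 per IP with each strand called apart, gave a fold (a ratio), a display score (not used) and −log10 p-values and q-values. The control used in peak calling was not stated. The authors' deposited gene tables gave levels with no unit named, read as FPKM from the values, and a log2 ratio, p-value and q-value per gene. The 2 tables were normalised separately. Folds and levels are the authors' own. Depth is not given.

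Coordinates are 1-based GRCm38. The summit was column 2 plus column 10 of the list. Gene spans came from both tables (14755 and 14427 genes, 13478 in both). Of these genes, 1277 had no symbol. Log2 ratios were computed as log2 of (IP + 0.01) over (input + 0.01) and matched the deposited ones to within 1.57e-09. The background of bases between genes covered 2014 Mb and left out sequence beyond the first and last table gene of a chromosome, where 19 outside peaks lay. RefSeq GRCm38.p6 gave spans of 49997 genes (strand at hand for 27024), promoter windows and microRNA sequences. Shares have exact Clopper-Pearson 95% intervals and medians exact order-statistic intervals. All cover counting error only, and peaks near each other are not independent. The scripts were tested on simulated data (Python 3.11.15, pandas 2.3.3, SciPy 1.17.1). A planned search of summit windows for motifs was not run because no genome was used here.

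Members and lists were chosen with earlier results of these data known. Named were the 10 outside peaks of highest fold among those shared, in wild type alone and in mutant alone; up to 3 per list in each position class; the 5 widest and the 3 longest runs of each list; and any within 100 kb of Lin28b or Hmga2. Alternatives changed gene spans, overlap, q-value, list length, neighbour class and summit position.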

Additional observations from a re-analysis of the deposited data

How the results depend on the processing

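Of 46 alternatives, 28 left the value within its interval or, for the numbers of runs and single peaks, within 1.5 times, 18 moved it and 0 reversed it. No paired analysis was possible because each group had 1 library. The share of peaks outside genes fell to 1.05% (wild type) and 1.00% (mutant) with gene spans extended by 1 kb, to 0.596% and 0.421% with 5 kb, to 1.00% and 0.845% for peaks with −log10 q of at least 10, and to 0.646% and 0.647% with RefSeq spans added, an alternative chosen after seeing the data. Shared were 24.9% and 18.4% when the overlap had to cover 50% of both peaks, 30.6% and 54.5% with only the mutant peaks of lowest p-value kept, as many as in wild type, and 39.6% in mutant with the stricter q-value in both lists. The share over all peaks was not computed under these rules. In wild type, peaks up to 5 kb past a gene's end were 28.6% with protein-coding neighbours only and 31.8% with the stricter q-value. With that q-value the median fold was 5.93 and 4.95, and the median width in mutant 434.5 bases. The causes were not tested, beyond that longer spans and stricter rules leave fewer peaks. The search of summit windows was not run. Depth is unknown, and 1 library per group leaves the spread between cultures unmeasured.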
